A study of Mus musculus with 14 samples.

Results

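The nuclear genes for subunits of the mitochondrial respiratory chain were followed in sorted aortic and yolk sac cells and in whole intra-aortic haematopoietic clusters (IAHCs) of mouse embryos. Members were chosen by symbol alone, as every listed gene named Nduf (a, b, c, s or v), Sdha to Sdhd, Uqcr, Cox4 to Cox8 or Atp5, with pseudogene names left out and genes of the mitochondrial genome not considered. No measured value entered the rule. It gave 92 of the 19424 genes listed for E11 single cells, with the same 92 among the 19322 genes listed at E10. By complex they were 38 genes of complex I, 7 complex I assembly factors of the Ndufaf series, 4 of complex II, 8 of complex III, 18 of complex IV and 17 named for complex V, including Atp5s and Atp5sl. In all, 74 members reached 0.5 transcripts per cell in some population, 68 reached 1, and Cox7b2, Cox8c and Ndufa4l2 were seen in no cell.

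The respiratory chain sits in the inner mitochondrial membrane. Complex I takes electrons from NADH and complex II, which is also the succinate dehydrogenase of the TCA cycle, takes them from succinate. Complex III hands them to cytochrome c and complex IV to oxygen, while protons are pumped across the membrane, and complex V, the ATP synthase, uses the proton gradient to make ATP. Endothelial cells are known for a strong use of glycolysis, and mitochondrial activity is often measured in blood stem and progenitor cells as they leave quiescence. The subunits come from genes on many chromosomes, and the core subunits encoded in mitochondrial DNA were not analysed here.

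Single cells and whole clusters had been sequenced with CEL-Seq, which counts the 3′ ends of transcripts with unique molecular identifiers (UMIs), so that levels do not depend on transcript length. Endothelial cells, all Cdh5+ and without Gfi1b, were split by the Gfi1 reporter and c-kit into non-haemogenic (non-HE, negative for both), haemogenic (HE, with Gfi1 alone) and those in endothelial-to-haematopoietic transition (EHT, with both). They came from the aorta-gonad-mesonephros (AGM) region of ICR embryos with the reporter genotype Gfi+/tomato/ Gfi1b+/GFP. IAHC cells (c-kit+CD31+, at E11 also c-kit+), E11 pre-HSCs (c-kit+Cdh5+, type I without and type II with CD45), c-kit+ haematopoietic stem and progenitor cells (HSPCs) of the yolk sac (YS) and whole IAHCs (wIAHCs, lifted mechanically out of the aorta in embryo slices) came from WT C57BL/6 embryos. E10 embryos had 28 to 32 somite pairs and E11 embryos more than 40. Strain, reporter alleles and sort all change between EHT and IAHC cells and cannot be told apart there. Each population at a stage is 1 sample in the labels (E11 IAHC cells 2, the pre-HSC types share 1), so no test was run between populations. Intervals on summed transcripts are exact 95% intervals that cover counting error only, and the spread between the sorted sets named in the column headers is given beside them.

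The deposited cells had been brought to equal depth, 3000 transcripts at E10 (546 cells: 43 non-HE, 98 HE, 191 EHT, 73 IAHC and 141 YS) and 5000 at E11 (575 cells: 30 non-HE, 46 HE, 46 EHT, 62 type I, 55 type II, 290 IAHC and 46 YS). The E10 table held no row for the 102 genes named Rpl or Rps that the E11 table lists, so shares are compared between stages only over the E10 genes with E11 cells thinned to 3000. Endothelial markers fell along the E10 series from 0.776% of transcripts in non-HE cells to 0.0355% in YS HSPCs, and haematopoietic markers went from 0.00465% to 0.224%. Mesenchyme markers took at most 0.0447% of any population. Cells with 4 or more of 8 macrophage markers numbered 1 among E10 HE and 1 among E11 EHT cells. Both sets of E10 non-HE cells carry E11 in their column names, and the labels were followed.

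The share of transcripts taken by the 92 genes was lowest in endothelium and highest in YS HSPCs. At E10 it was 2.20% (95% interval 2.12 to 2.28) in non-HE, 2.61% (2.55 to 2.67) in HE, 3.07% (3.02 to 3.11) in EHT, 4.08% (3.995 to 4.161) in IAHC and 4.70% (4.638 to 4.765) in YS cells. Neighbours in this order did not overlap in their intervals, nor in the ranges of their sorted sets, which were 2.11 to 2.38% for non-HE (2 sets), 2.58 to 2.63% for HE (2), 2.96 to 3.39% for EHT (3) and 4.56 to 4.87% for YS (2), beside 1 set of IAHC cells. In single cells of 3000 transcripts, members held 23 to 101 transcripts (median 66) in non-HE, 46 to 119 (78) in HE, 55 to 146 (91) in EHT, 89 to 173 (118) in IAHC and 98 to 181 (142) in YS cells. Of 73 IAHC cells, 72 lay above the EHT median, and 130 of 141 YS cells lay above the IAHC median. The spread between cells was wider than counting alone gives, with an SD of 15.2 transcripts in EHT cells against 9.59.

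At E11 the order was the same from EHT cells on, but HE cells did not lie above non-HE cells. The share was 1.95% (1.88 to 2.02) in non-HE, 1.82% (1.77 to 1.88) in HE, 2.12% (2.06 to 2.18) in EHT, 2.59% (2.538 to 2.6504) in type I, 2.70% (2.64 to 2.76) in type II, 2.654% in IAHC and 3.33% (3.26 to 3.41) in YS cells. Sets of IAHC cells ran from 2.35 to 2.96% (9 sets), of type I from 2.41 to 2.90% (3) and of type II from 2.45 to 2.95% (3), so these 3 populations overlapped, while all 9 IAHC sets lay above the single EHT set and below the single YS set. The E11 c-kit+CD31+ IAHC cells stood at 2.62% (201 cells) and the c-kit+ cells at 2.72% (89 cells). Of 290 IAHC cells, 269 exceeded the EHT median, and 46 of 46 YS cells exceeded the IAHC median. The median number of genes per cell was 1802 in non-HE, 1846.5 in HE, 1837 in EHT, 1812 in IAHC and 1752 in YS cells of E10, and lay between 2162.5 in YS and 2427.5 in HE cells of E11.

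**Figure D1:**
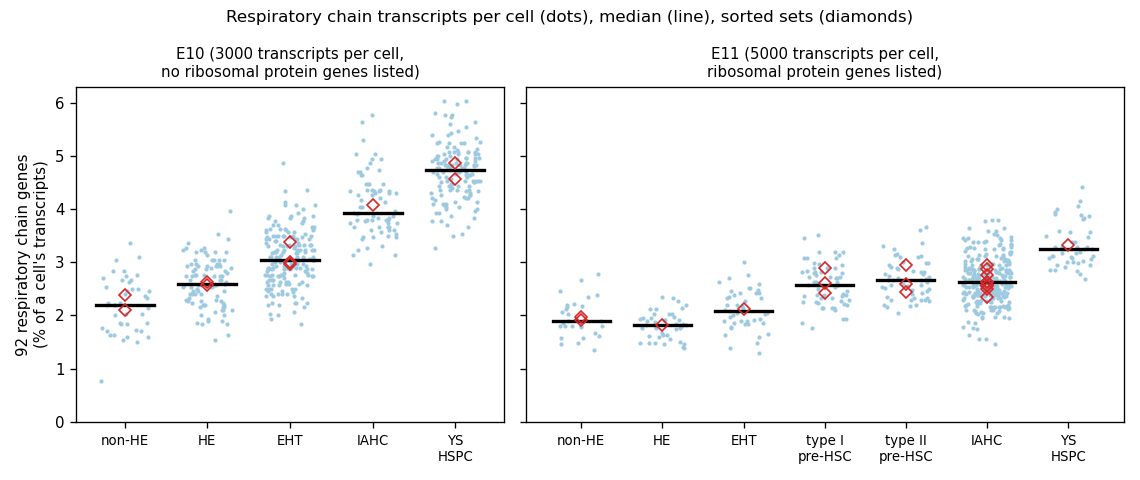
Share of each cell's transcripts (%) from the 92 respiratory chain genes by sorted population at E10 (left, 3000 transcripts per cell) and E11 (right, 5000 transcripts per cell, with ribosomal protein genes in the denominator). Dots are cells, lines medians and diamonds sorted sets, and the E10 medians climb from 66 transcripts in non-HE to 142 in YS cells.

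With E11 cells thinned to 3000 transcripts over the E10 genes, shares were 2.30% in non-HE, 2.11% in HE, 2.63% in EHT, 3.47% in IAHC and 4.46% in YS cells. The log2 difference from E10 was 0.06 (-0.02 to 0.14) in non-HE, -0.30 (-0.37 to -0.24) in HE, -0.22 (-0.27 to -0.17) in EHT, -0.23 (-0.27 to -0.20) in IAHC and -0.08 (-0.12 to -0.04) in YS cells. At equal depth and over the same genes, E11 cells thus held a lower share in 4 of 5 populations beyond counting error. The exception, non-HE cells, rests on E10 sets that carry E11 in their column names, so its stage difference is less sure. Over the E10 genes and before thinning, the 9 E11 IAHC sets ran from 2.92 to 3.94%, all below the single E10 set. The stages share no sorted set, so that stage and collection cannot be told apart.

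By complex, complex V held the largest share at E10, from 0.709% in non-HE to 1.475% in YS cells, followed by complex I (0.657 to 1.345%) and complex IV (0.526 to 1.27%). Complex III went from 0.229 to 0.487%, and complex II from 0.0566 to 0.0846%. From EHT to IAHC cells, complex IV was higher by 0.53 on the log2 scale at E10 (0.45 to 0.60) and 0.42 at E11 (0.33 to 0.51). The difference was 0.47 and 0.35 for complex I, 0.49 and 0.32 for complex III and 0.30 and 0.26 for complex V, all with intervals above 0. Complex II was the exception, with -0.19 (-0.47 to 0.08) and 0.09 (-0.17 to 0.35), and its intervals at E10 did not overlap those of complexes I, III, IV and V. At E11 its interval overlapped those of all 4. Of its genes, Sdhd lay lowest, at -1.34 at E10 and -1.49 at E11 (log2 ratio on transcripts per cell plus 0.1). Sdha, Sdhb and Sdhc lay at -0.09, -0.24 and 0.47 at E10 and at 0.28, 0.09 and 0.67 at E11. Complex II was not summed without Sdhd, so these values describe the 4 genes together. The sorts also differ in strain. The purification rule (more than 1 Gpr56 transcript, at most 2 of each non-IAHC gene) was applied again here, to the down-sampled counts and with 11 non-IAHC genes. It kept 54 of 73 E10 and 187 of 290 E11 IAHC cells. The paper describes its IAHC cells as already purified on Gpr56, so cells dropped here need not have failed its own purification. With the kept cells alone the log2 ratio of the summed share was 0.43 and 0.35 from EHT to IAHC and 0.19 and 0.30 from IAHC to YS cells.

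**Figure D2:**
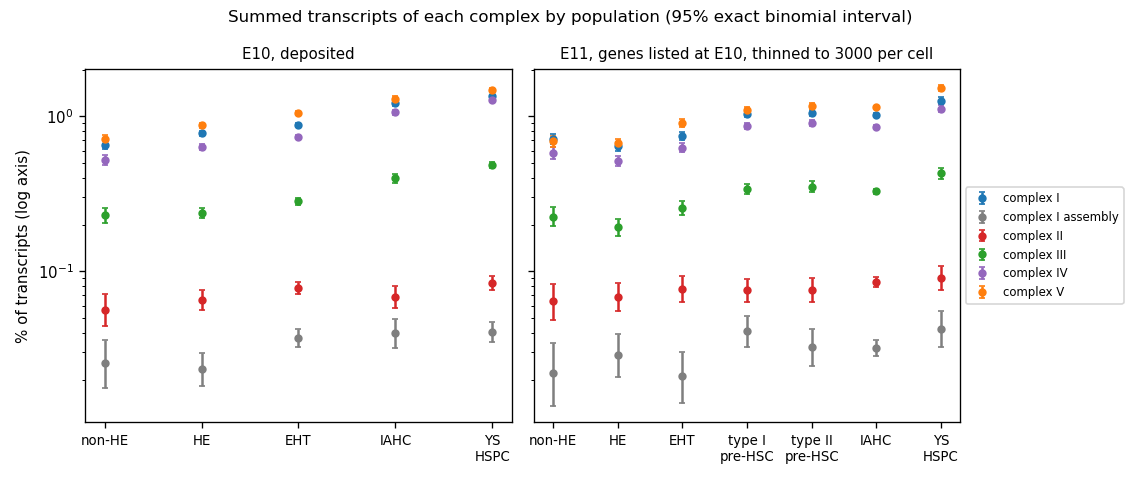
Summed transcripts of each complex as % of all transcripts (log axis) by population, at E10 as deposited (left) and at E11 over the genes listed at E10 with cells thinned to 3000 transcripts (right). Points are population sums with exact 95% binomial intervals, and complex II stays between 0.0566 and 0.0846% at E10 while complexes I, III, IV and V climb toward YS cells.

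From non-HE to HE cells few members moved. A fold of at least 1.5, on transcripts per cell plus 0.1 and among genes with 0.5 transcripts per cell in either population, was used to name differences. At E10, 3 of 64 members were higher in HE cells and 0 lower, against 12% and 13.2% of all 1528 genes past the filter. Atp5g1, one of the genes for the membrane subunit c of ATP synthase, went from 0.465 to 1.17 transcripts per cell and reached the filter in HE cells alone, Ndufc2 from 0.628 to 1.11 and Ndufa6 from 0.814 to 1.388. At E11, 0 of 69 were higher and 5 lower, against 12.8% and 12.5% of all genes. These 5 were Cox7b (3.8 to 1.78), a small complex IV subunit, Uqcr11 (1.17 to 0.630), Ndufa3 (1.4 to 0.783), Ndufa7 (1.17 to 0.674) and Cox6c (2.53 to 1.63), measured in 30 and 46 cells. With a pseudocount of 0.5 the counts were 1 higher at E10 and 1 lower at E11, and in thinned E11 cells 3 of 63 were higher and 7 lower, against 13.3% and 13.7% of all genes.

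From HE to EHT cells few members reached 1.5-fold at the deposited depth. Of the members past the filter, 53 of 66 at E10 and 47 of 71 at E11 lay above 0 (all genes 53.3% and 46.3%), with a median log2 ratio of 0.22 and 0.18, against 0.05 and -0.05 over all genes. At E10, 2 were higher and 0 lower, against 14.3% and 18.2% of all genes. They were Atp5f1 (0.551 to 0.911), a subunit of the peripheral stalk of ATP synthase, and Ndufa9 (0.327 to 0.555), which reached the level filter in EHT cells alone. The HE sets of Atp5f1 stood at 0.270 and 0.721 and its EHT sets between 0.8125 and 0.989. All EHT sets lay less than 1.5-fold above the higher HE set, so the Atp5f1 call rested on the lower one. At E11, 5 were higher and 0 lower, against 15.9% and 24.5%, namely Ndufb7 (0.457 to 1.00), Ndufb8 (0.696 to 1.28), Ndufc1 (0.5 to 0.935), Uqcr10 (0.674 to 1.17) and Uqcr11 (0.630 to 1.04), of which Ndufb7 reached the filter in EHT cells alone. No member passed at both stages, against 8.14% of all genes. In E11 cells thinned over the E10 genes, 14 of 64 were higher and 2 lower, against 21.1% and 22.6% of all genes, and with a pseudocount of 0.5 the numbers higher were 0 at E10 and 1 at E11.

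From EHT to IAHC cells more members passed 1.5-fold than in any other comparison made here. At E10, 22 of 71 were at least 1.5-fold higher in IAHC cells and 2 lower, against 18.8% and 14.3% of all genes past the filter. At E11, 21 of 74 were higher and 2 lower, against 18.6% and 22.3%. The median member stood at 0.37 at E10 and 0.31 at E11 on the log2 scale, against 0.11 and 0.01 over all genes. By complex, 11 of 34 members of complex I, 3 of 8 of complex III, 4 of 11 of complex IV and 4 of 15 of complex V were higher at E10, and 9 of 36, 3 of 8, 4 of 11 and 4 of 15 at E11, besides Sdhc of complex II at E11. Of those higher, 4 of 22 at E10 and 4 of 21 at E11 reached the level filter in IAHC cells alone, and of those lower Sdhd at E11 in EHT cells alone. With a pseudocount of 0.5 the numbers higher were 14 and 11, and those lower 0 and 1, while a filter of 0.2 transcripts per cell gave 4 lower at E10. The shares of all genes above hold for a pseudocount of 0.1 and a filter of 0.5, so these counts cannot be read against them.

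Past 1.5-fold at both stages were 12 of the 71 members measured in both, against 10.8% of all genes measured in both, with 22 and 21 members past it at each stage: Ndufa2, Ndufa3, Ndufa13, Ndufb2, Ndufs8 and Ndufv1 of complex I, Uqcr11 of complex III, Cox5b, Cox6c and Cox7a2 of complex IV, and Atp5b and Atp5j2 of complex V. They include the catalytic β subunit of ATP synthase (Atp5b) and small accessory subunits. The flavoprotein subunit that binds NADH (Ndufv1) and an iron-sulphur subunit (Ndufs8) reached the level filter only in IAHC cells at both stages, and Ndufb2 did so at E10, so that there they could be counted only by being higher. Uqcr11, an accessory subunit of complex III, went from 0.832 transcripts per cell in E10 EHT cells to 2.08 in IAHC cells, a fold of 2.34, and from 1.04 to 2.01 at E11. Its 3 E10 EHT sets lay between 0.724 and 1.23, below the IAHC set, while the 9 E11 IAHC sets ran from 0.714 to 2.31. One of these, with 7 cells, lay below the E11 EHT level.

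Ndufa13, a complex I subunit also known as Grim19, went from 0.628 to 1.521 at E10 and from 0.609 to 1.469 at E11. Sets of E10 EHT cells ran from 0.578 to 0.750 and sets of E11 IAHC cells from 0.714 to 1.87, so that at each stage all IAHC sets lay above all EHT sets. Ndufa2 went from 0.916 to 2.05 and from 0.913 to 1.93, and Ndufa3 from 0.759 to 1.603 and from 0.804 to 1.569. Atp5b, the most abundant member, went from 4.16 to 6.86 and from 4.11 to 6.69. Among genes past 1.5-fold at 1 stage, Cox7c went from 2.92 to 5.75 at E10, but its E11 IAHC sets ran from 2.25 to 6.08 around the EHT level of 3.20. Cox4i1, the common isoform of a regulatory complex IV subunit, went from 1.98 to 4.183 at E11, where all 9 sets (3.43 to 5.31) lay above the EHT set.

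A small group moved against the rest. At E10 the members lower in IAHC cells were Uqcrq (1.61 to 1.03), a complex III accessory subunit, and Atp5c1 (1.764 to 1.14), the γ subunit that forms the rotating shaft of ATP synthase. Both lay close to the limit of 1.5-fold, and neither passed it with a pseudocount of 0.5. These calls rest on population means, and the spread between the EHT sets was not weighed in them. Atp5f1 (0.911 to 0.616) and Atp5h (2.01 to 1.44), both of the peripheral stalk, fell short of 1.5-fold. At E11, Sdhd (0.696 to 0.183) and Atp5f1 (1.41 to 0.824) were lower. Atp5f1 ran from 0.313 to 2 over the 9 E11 IAHC sets, which includes the EHT level of 1.41. Uqcrq was at 1.372 in E11 IAHC cells against 1.913 in EHT cells, a fold of 0.731.

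**Figure D3:**
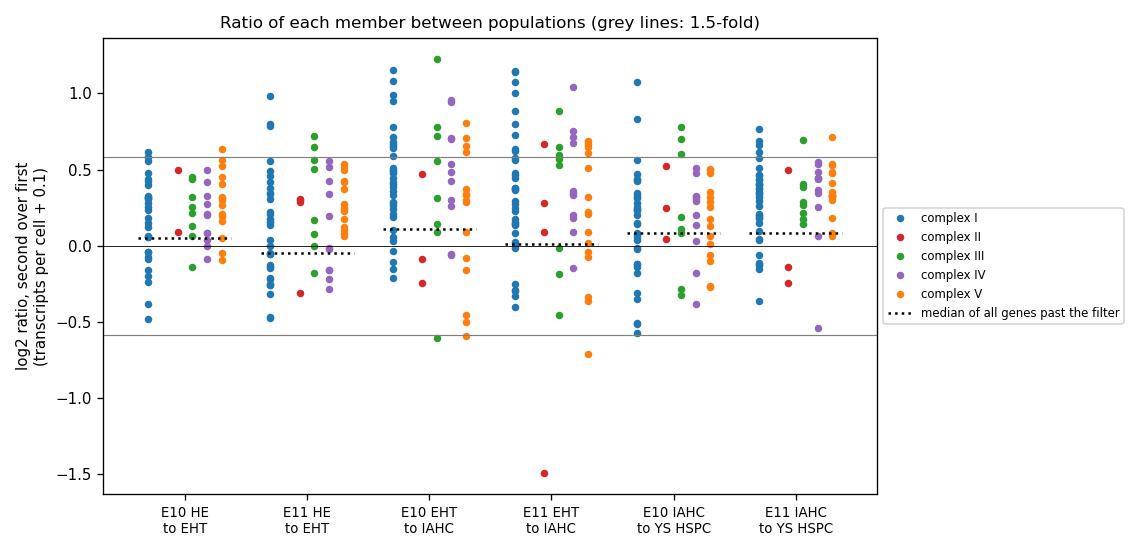
Log2 ratio, on transcripts per cell plus 0.1, of each member past the level filter for HE to EHT, EHT to IAHC and IAHC to YS HSPC at both stages, coloured by complex. Grey lines mark 1.5-fold and dotted lines the median over all genes, and the member median exceeds that of all genes in each of the 6 comparisons, by 0.37 against 0.11 at the E10 EHT to IAHC step.

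Within complex II, Sdhd, the small membrane anchor of succinate dehydrogenase, differed most between EHT and IAHC cells at both stages, although under the level filter at E10. It stood between 0.302 and 0.466 transcripts per cell in the 3 E10 sorts of ICR embryos and between 0.533 and 0.696 in those of E11, but at 0.123 in E10 IAHC, 0.163 in E10 YS, 0.161 in type I, 0.218 in type II, 0.183 in E11 IAHC and 0.109 in E11 YS cells. The sets did not follow the populations throughout. E10 HE cells gave 0.108 in one set and 0.557 in the other, and E11 IAHC cells gave 0.0204 to 0.0698 in the 4 c-kit+CD31+ sets but 0.32 to 1 in the 5 c-kit+ sets, which are labelled as the same strain. Sort and sorted set thus moved with Sdhd inside a population, and their part in its low levels was not tested. The catalytic subunits Sdha (0.822 in E10 EHT, 0.767 in E10 IAHC) and Sdhb (0.602 and 0.493) differed by less than 1.5-fold. Sdhc, the other membrane anchor, lay the opposite way from Sdhd, from 0.455 in E10 EHT to 0.671 in IAHC cells, short of 1.5-fold, and from 0.630 to 1.06 at E11, past it.

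Ndufs5 was singled out after its values were seen, which were low. This complex I accessory subunit gave 0 transcripts in every ICR sort, which allows up to 0.0193 per cell in the 191 E10 EHT cells (upper 95% limit), but up to 0.0802 in the 46 HE or 46 EHT cells and 0.123 in the 30 non-HE cells of E11. Taken singly, none of these E11 sorts could thus show a difference from IAHC cells at this depth, and the sorts together were not tested. It gave 57 transcripts in the C57BL/6 sorts, at 0.151 per cell in E10 IAHC, 0.0567 in E10 YS, 0.0968 in type I, 0.164 in type II, 0.0621 in E11 IAHC and 0.109 in E11 YS cells. Strain, reporter and collection change together between these sorts and cannot be told apart, and sets within the E11 IAHC cells ran from 0 to 0.18.

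Between IAHC cells and YS HSPCs, which share the strain but not the tissue, few members passed 1.5-fold, although the summed share was higher in YS cells. Of the members past the filter, 52 of 71 at E10 and 64 of 73 at E11 lay above 0 (all genes 56.9% and 57.6%), with a median of 0.20 and 0.34 against 0.09 over all genes at both stages. At E10, 5 were at least 1.5-fold higher and 0 lower, against 16.5% and 12.2% of all genes. They were Ndufa5 (0.521 to 1.206), Ndufv3 (0.890 to 1.66), Uqcrq (1.03 to 1.84), Uqcr10 (1.90 to 3.16) and Uqcr11 (2.08 to 3.22), so that 3 of 5 belong to complex III. At E11, 6 of 73 passed 1.5-fold in either direction, all of them higher, against 22.9% of all genes (223 higher and 264 lower of 2130). They were Ndufab1 (0.931 to 1.65), the acyl carrier protein of mitochondria, Atp5c1 (1.67 to 2.80), Uqcr11 (2.01 to 3.33), Ndufv3 (0.786 to 1.33), Ndufb10 (0.828 to 1.3696) and Ndufs7 (0.900 to 1.43). Uqcr11 and Ndufv3 passed at both stages, against 5.29% of all genes measured in both. Cox7a2l lay the other way at E11 (2.51 to 1.696) and short of 1.5-fold. In thinned E11 cells 10 of 72 members were higher, against 12.6% of all genes, and 3 with a pseudocount of 0.5. The 7 erythroid markers took 0.0493% of transcripts in E10 IAHC and 0.0527% in E10 YS cells, and 0.00524% and 0.101% at E11, and their part in these differences was not tested.

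Type I and type II pre-HSCs were close. The log2 ratio of the summed share was 0.06 (0.01 to 0.10), and it turned to -0.06 without 1 of the 3 type I sets and to -0.02 without 1 of the 3 type II sets. Of 73 members, 1 was higher in type II cells, Sdhc (0.548 to 0.927), and 1 lower, Ndufa11 (1.06 to 0.673), against 5.53% and 6.55% of all genes. A pseudocount of 0.5 left neither, and a filter of 0.2 gave 2 of each. Sets of the types carry the same numbers in the column headers. Within a number the share was 2.605% in type I and 2.446% in type II (8 and 10 cells), 2.414% and 2.598% (34 and 25) and 2.896% and 2.949% (20 and 20), so that type II was higher in 2 of 3.

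Mammals have 3 genes for subunit c of ATP synthase, Atp5g1, Atp5g2 and Atp5g3, which encode the same mature protein behind different import peptides. Their proportions changed along the E10 series. Atp5g1 gave 0.465 transcripts per cell in non-HE, 1.17 in HE, 1.79 in EHT, 2.22 in IAHC and 3.17 in YS cells, and its part of the transcripts of the trio went from 9.80% (6.09 to 14.7) through 16.2% (13.5 to 19.06), 21.9% (19.9 to 24.1) and 26.3% (22.9 to 30.0) to 31.4% (29.0 to 33.9), with intervals that overlap between neighbours except HE and EHT. The E10 sets of Atp5g1 did not overlap between neighbouring populations, from 0.321 to 0.733 in non-HE, 1.05 to 1.38 in HE, 1.55 to 2.03 in EHT and 3 to 3.37 in YS cells. At E11 the part of Atp5g1 was 19.72% in non-HE, 17.2% in HE, 17.1% in EHT, 22.4% in type I, 22.2% in type II, 23.4% in IAHC and 25.6% in YS cells, with intervals that overlap between all neighbours in this order. Whether the course differed between stages was not tested. Atp5g2 stayed between 2.14 and 3.23 transcripts per cell at E10, while Atp5g3 was at 2.97 in IAHC and 4.26 in YS cells.

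**Figure D4:**
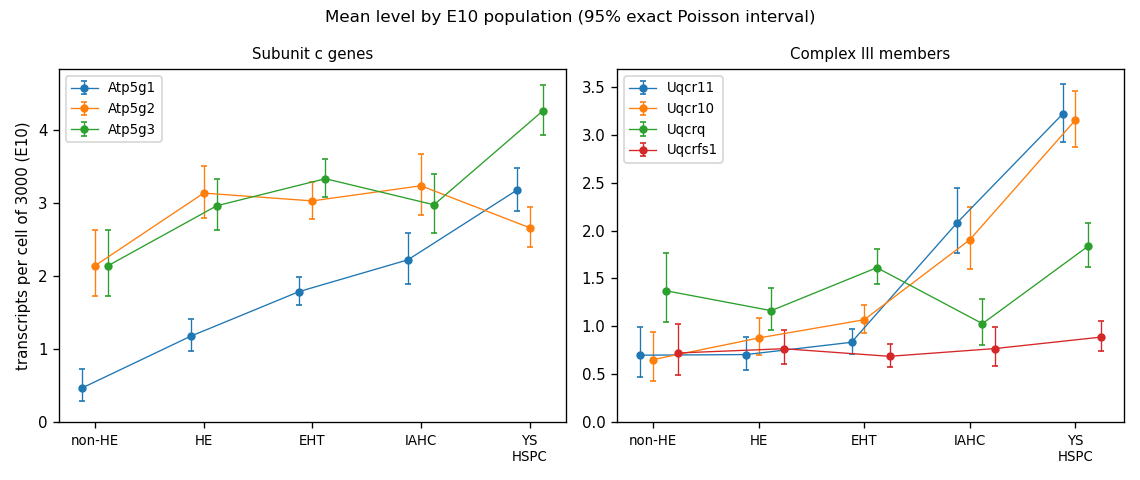
Mean transcripts per cell of 3000 by E10 population for the subunit c genes (left) and for 4 members of complex III (right), with exact 95% Poisson intervals. Atp5g1 goes from 0.465 in non-HE to 3.17 in YS cells, and Uqcr11 and Uqcr10 part from Uqcrq and Uqcrfs1 between EHT and IAHC cells.

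The promoters of the subunit c genes and of Uqcr11 are shown because the former moved unlike each other and Uqcr11 passed 1.5-fold at both stages in the EHT to IAHC and the IAHC to YS comparison. Each runs from 250 bases before to 50 after the RefSeq start (GRCm38.p6, minus strand, 5′ to 3′), and capitals mark the letters of a searched motif. Atp5g1 lies at chr11:96075582-96075881, Atp5g2 at chr15:102670998-102671297, Atp5g3 at chr2:73911277-73911576 and Uqcr11 at chr10:80406772-80407071.
Atp5g1: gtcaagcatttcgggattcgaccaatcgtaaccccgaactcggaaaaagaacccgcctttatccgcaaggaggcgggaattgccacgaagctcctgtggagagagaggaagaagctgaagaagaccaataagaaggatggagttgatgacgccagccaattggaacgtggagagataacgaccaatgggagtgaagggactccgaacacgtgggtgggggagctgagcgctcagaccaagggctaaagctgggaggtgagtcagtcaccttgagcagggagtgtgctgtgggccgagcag
Atp5g2: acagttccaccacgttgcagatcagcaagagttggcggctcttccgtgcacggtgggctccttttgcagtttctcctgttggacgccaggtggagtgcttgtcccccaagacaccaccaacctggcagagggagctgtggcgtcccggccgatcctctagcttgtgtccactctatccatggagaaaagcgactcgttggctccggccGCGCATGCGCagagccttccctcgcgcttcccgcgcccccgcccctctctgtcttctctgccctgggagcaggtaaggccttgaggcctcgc
Atp5g3: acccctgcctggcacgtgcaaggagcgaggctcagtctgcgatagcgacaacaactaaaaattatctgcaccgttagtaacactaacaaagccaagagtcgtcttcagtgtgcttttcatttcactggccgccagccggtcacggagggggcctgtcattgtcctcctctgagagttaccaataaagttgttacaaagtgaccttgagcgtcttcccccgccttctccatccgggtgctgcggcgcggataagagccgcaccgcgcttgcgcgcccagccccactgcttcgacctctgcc
Uqcr11: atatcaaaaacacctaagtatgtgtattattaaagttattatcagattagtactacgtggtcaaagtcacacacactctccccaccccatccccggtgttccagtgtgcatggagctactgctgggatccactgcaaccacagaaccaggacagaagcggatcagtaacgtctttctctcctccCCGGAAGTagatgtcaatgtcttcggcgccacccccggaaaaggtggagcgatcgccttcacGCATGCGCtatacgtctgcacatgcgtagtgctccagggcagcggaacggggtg

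The motifs were GCGCATGC for NRF1, CCGGAAGT for ETS factors such as GABP, and AAGATGGCG for YY1 (added after the data were seen), on both strands and with no mismatch, for factors known from studies of genes of the respiratory chain. Atp5g2 held 2 overlapping NRF1 matches, Uqcr11 an NRF1 and an ETS match, and Atp5g1 and Atp5g3 none. RefSeq promoters were matched for 76 of the 92 members, 73 by symbol and 3 by a synonym. The NRF1 letters stood in 12 of these (15.8%) against 2.80% of 27025 promoters of the same length, those of YY1 in 7 (9.21%) against 1.49%, those of ETS in 5 (6.58%) against 4%, and any of them in 23 (30.3%) against 7.85%. Such a match is a description of the letters in this window only.

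Of paralogous isoforms of complex IV, the common form was present in every population and the tissue form gave few transcripts. The ranges given here take in both stages at their own depths. Cox4i1 stood between 1.79 and 5 transcripts per cell, while Cox4i2, an isoform known from lung and from low oxygen, gave 3 transcripts in all, each from E11 IAHC cells. Cox6a1 stood between 1.53 and 3.804 against 3 transcripts in all for the muscle form Cox6a2. Cox7a2 stood between 0.721 and 3.28 against 18 transcripts for the muscle form Cox7a1, Cox8a between 2.28 and 5.89 against 2 for Cox8b, and Cox6b1 between 1.116 and 2.72 against 93 for the testis form Cox6b2, which reached 0.2 per cell in type II pre-HSCs. Ndufa4, named for complex I but now counted to complex IV, stood between 1.395 and 3, with its relative Ndufa4l2 not seen.

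Among the 2 members of highest mean in each of complexes I, III, IV and V, Cox7c ran from 1.44 to 6.62 and Cox8a from 2.28 to 5.22 transcripts per cell over the 5 E10 populations, Atp5b from 2.23 to 8.38, Atp5a1, the α subunit of ATP synthase, from 1.77 to 5.55, Uqcrh from 1.349 to 2.73 and Ndufa6 from 0.814 to 2.07. The 7 assembly factors were scarce, and 0 reached the level filter. Ndufaf2 had the highest mean over populations and ran from 0.152 to 0.356, while Ndufaf4 reached 0.457 in E11 YS cells. Many respiratory chain genes have processed pseudogenes elsewhere in the genome, and how reads shared with these were counted is not given in the sources used here.

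Lists of other mitochondrial genes were read against the shares of all genes given above for each comparison. From EHT to IAHC cells these were 18.8% higher and 14.3% lower at E10, and 18.6% and 22.3% at E11. From IAHC to YS cells, 16.5% were higher at E10 and 223 of 2130 genes at E11. Of 76 genes for mitochondrial ribosomal proteins, which translate the subunits encoded in mitochondrial DNA, 22 passed the filter between E10 EHT and IAHC cells, with 6 at least 1.5-fold higher, 0 lower and a median of 0.42. At E11, 34 passed, with 13 higher, 2 lower and a median of 0.48. Between IAHC and YS cells 13 of 36 were higher at E10 and 11 of 47 at E11. Of the TCA cycle enzymes, 0 of 8 were higher and 2 lower from EHT to IAHC cells at E10 (median -0.12, against 0.11 over all genes) and 1 of 10 higher and 1 lower at E11 (0.09 against 0.01). The lower ones were Ogdh and Dld at E10 and Ogdh at E11, both parts of the 2-oxoglutarate dehydrogenase complex. Ogdh, its E1 subunit, gave 1.245 transcripts per cell in E10 HE, 3.16 in EHT, 0.548 in IAHC and 0.851 in YS cells, and 1.61, 3, 0.852 and 1.478 at E11, so that it peaked in EHT cells at both stages. The electron carriers and subunits outside the rule (Cyc1, Cycs, Usmg5, 2010107E04Rik and Atpif1) gave 2 of 5 higher from EHT to IAHC cells at each stage, with medians of 0.22 and 0.25. Of 12 regulators of mitochondrial biogenesis, at most 2 passed the level filter in a comparison.

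In wIAHCs, which are bulk samples where fewer cells of a type and less RNA per cell cannot be told apart, the share of the 92 genes differed little between groups. Of 109 libraries, the 57 with at least 5000 transcripts were used (7 E10 dorsal, 21 E10 ventral, 12 E11 dorsal and 17 E11 ventral), with depths of 5099 to 115328 and a median of 12838. The median share was 2.55% (range 2.23 to 3.05) in E10 dorsal, 2.39% (1.75 to 3.06) in E10 ventral, 2.21% (1.43 to 3.61) in E11 dorsal and 2.45% (1.77 to 2.69) in E11 ventral wIAHCs. All 4 ranges overlapped. In all, 3 libraries of E11 held over 10% haemoglobin transcripts. The column names of E11 libraries come in 2 forms (6 and 6 dorsal, 4 and 13 ventral). These forms were taken here as collections, which the labels do not state.

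Between stages on the ventral side, 2 of the 11 members tested changed, with Cox6c higher and Atp5a1 lower at E11 (edgeR quasi-likelihood test, Benjamini-Hochberg over 260 genes). Across all genes 18.1% were higher and 13.1% lower. Atp5a1 gave 6.74 to 15.8 transcripts per 10000 (median 11.8) in E10 ventral and 2.64 to 12.2 (7.43) in E11 ventral wIAHCs, with a log2 difference of -0.43 ± 0.16 (SE, edgeR adjusted p = 0.0316). Cox6c, a small complex IV subunit, gave 2.92 to 11.4 (5.98) and 2.40 to 12.3 (7.95), with a difference of 0.49 ± 0.19 (edgeR adjusted p = 0.0399). The ranges overlapped for both genes, and which wIAHCs came from 1 embryo is not known, so that these p-values may be too small. The adjusted p ran from 0.00733 to 0.263 for Atp5a1 over 10 alternatives, and was 0.0694 without the libraries rich in haemoglobin. For Cox6c it ran from 0.0148 to 0.542, with 0.263 with collection in the fit. The next lowest p-values belonged to Atp5e, Atp5b and Cox8a, with adjusted p of 0.185, 0.186 and 0.211.

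On the dorsal side edgeR called 0 of 11 members, and so did DESeq2, against 7.31% of all genes higher and 1.92% lower by edgeR. At an unadjusted p under 0.05, edgeR gave 4 members, Cox6c (0.74) and Cox8a (0.68) higher and Atp5b (-0.41) and Atp5a1 (-0.51) lower on the log2 scale, and DESeq2 gave 3. These 4 are 36.4% of the members tested, against 25.8% of all genes at that limit. Between sides, edgeR and DESeq2 called 0 members at E10, at E11 and for the stage by side term, with 0% of all genes called by edgeR in each. Unadjusted, Atp5g2 at E11 alone lay under 0.05 in these contrasts, 0.67 higher on the ventral side. Its levels were 1.16 to 6.52 per 10000 (median 3.63) in dorsal and 3.26 to 11.8 (6.31) in ventral E11 wIAHCs. This single member is 9.09% of those tested, against 8.85% of all genes under 0.05 in that contrast. At E10 and for the stage by side term, 0% of members stood against 7.69% and 10% of all genes. The same limit on embryos holds for all these p-values.

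**Figure D5:**
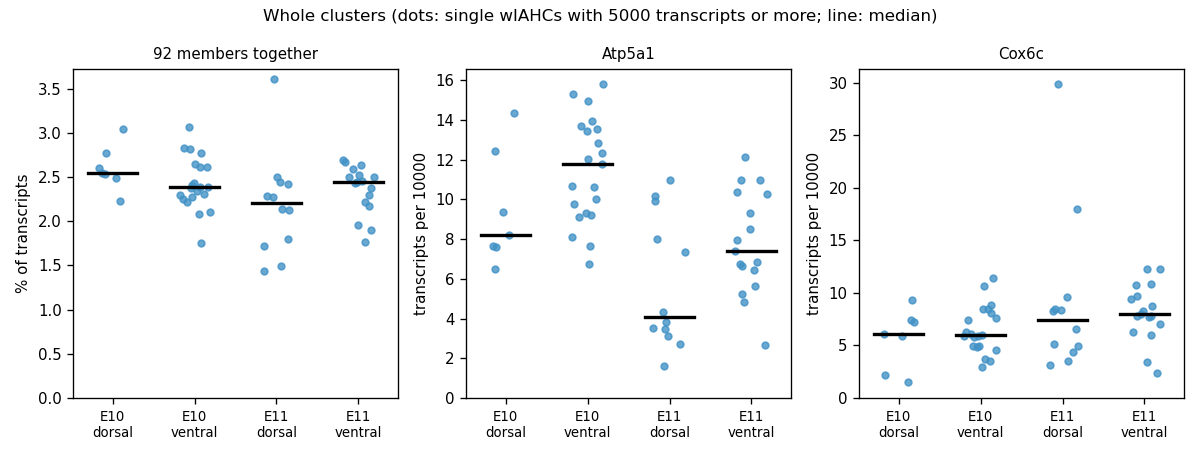
Share of transcripts from the 92 genes (%, left) and levels of Atp5a1 and Cox6c (transcripts per 10000, middle and right) in 57 wIAHCs by stage and side. Dots are libraries and lines medians, and Atp5a1 has its medians at 11.8 in E10 ventral and 7.43 in E11 ventral wIAHCs with overlapping ranges.

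The filter left most members untested, so a looser one (counts of 2 in the smallest group, 20 in all), chosen after seeing the data, was run over 3007 genes with 77 members. On the ventral side, 1 member was higher, Ndufa6 (0.86 ± 0.29, edgeR adjusted p = 0.0492), and 0 lower, against 4.59% and 2.49% of all genes, with 7 members (9.09%) at an unadjusted p under 0.05 against 580 of 3007 genes. DESeq2 called Ndufa6 and Ndufa3 higher and Atp5a1 lower. On the dorsal side, 0 were higher and 4 lower, against 0.865% and 2.59%, namely Ndufb5 (-1.53 ± 0.43), Uqcr10 (-1.49 ± 0.45), Ndufb7 (-1.62 ± 0.50) and Atp5a1 (-0.96 ± 0.28), with edgeR adjusted p of 0.0263, 0.0443, 0.0478 and 0.0354. DESeq2 called 4 as well, with Atp5b in place of Ndufb7. Each of the 5 edgeR calls was lost under some alternatives, with adjusted p up to 0.252 for Ndufb5, 0.380 for Uqcr10, 0.445 for Ndufb7 and 0.259 for Atp5a1 on the dorsal side and 0.463 for Ndufa6 on the ventral side. Ndufb7 gave 1.49 to 4.53 per 10000 (median 2.15) in E10 dorsal and 0 to 1.46 (0.787) in E11 dorsal wIAHCs, the only 1 of the 4 whose groups did not overlap. The member median was -0.42 there against -0.24 over all genes, and -0.43 for cytosolic and -0.52 for mitochondrial ribosomal protein genes. Between sides, edgeR called 0 members at E10, at E11 and in the interaction, against 0.366%, 0.0333% and 0.0333% of all genes, with 1 (1.30%), 13 (16.9%) and 14 (18.2%) members at an unadjusted p under 0.05 against 5.62%, 10.9% and 8.35% of all genes, while DESeq2 called 2 at E11, Atp5g2 and Uqcr10. The shares of all genes under this filter are those of edgeR, so the DESeq2 calls cannot be read against them. At E11 the member median was 0.37 higher on the ventral side against 0.26 over all genes. E11 dorsal libraries were the shallowest, with a median of 8244 transcripts, and the part of depth in these differences was not tested. These p-values too may be too small, for the same reason.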

How the data were processed

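Single cells and wIAHCs were sequenced with CEL-Seq. For single cells, the authors deposited estimated counts of transcripts from UMIs, down-sampled to 1 depth per stage and raised by 0.1, which was taken off again. Of wIAHCs, the authors deposited estimated counts too, corrected for UMI collisions but not scaled, which were rounded before testing. The submitters' processing notes name BWA 0.6.2-r126 and mm10. Since the E10 cells were shallower than E11 cells, member shares were compared between stages after thinning E11 cells to 3000 transcripts, and other levels are given at the depth of their stage. Cells had been sorted singly and no doublet caller was run.

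The members and lists were chosen with earlier results of these data known. Named members were, in each complex, the 2 with the highest mean, all isoform groups, the 5 largest rises and falls of a comparison, and in wIAHCs those called and the 5 with the lowest p. Population sums were compared with exact intervals (conditional binomial for ratios), and members by the fold rule. For wIAHCs with 5000 transcripts or more, edgeR 4.0.16 (TMM, filterByExpr, quasi-likelihood test, 4 groups in 1 fit, adjusted p under 0.05) was run in R 4.3.3 with DESeq2 1.42.0 as the second tool, after the 90 spike-in entries had been left out. Standard errors are the log2 difference over the root of edgeR's F, and edgeR raises some p-values to those of a Poisson fit. Undoing the collision correction with 256 UMIs gave whole numbers within 0.01 for all but 1 value. The procedure was tested on simulated data. Alternatives were other depths, filters, pseudocounts, denominators, sets and libraries, of which the looser filter, limiting E11 cells to the E10 genes, pairing pre-HSC sets by number and leaving out libraries with mesenchyme markers were chosen after seeing the data. Tables were handled in Python 3.11.15 with numpy 2.4.6, pandas 2.3.3 and scipy 1.17.1, and figures drawn with matplotlib 3.10.9.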

Additional observations from a re-analysis of the deposited data

Results flagged for a closer look

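In 34 groups of 4 to 10 samples, 4 held a value far from the others relative to the group's range (Dixon's criterion at 95%), where chance gives about 1 in 20. Among the 7 E10 dorsal wIAHCs, complex V took 1.11% of transcripts in one library, with the next at 0.895%. In the same group Ndufb5 stood at 9.99 transcripts per 10000 in one library (next 4.16) and Uqcr10 at 9.99 in one (next 3.39). Both genes were among those lower in E11 dorsal wIAHCs under the looser filter. Single genes were looked at only if named from the tests of these same libraries, so the rate of 1 in 20 does not hold for them. Among the 9 E11 IAHC sets, complex II took 0.103% of transcripts in a c-kit+ set of 15 cells, with the next at 0.08%.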

How the results depend on the processing

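The summed share kept its direction in each comparison under every alternative run, apart from type I against type II pre-HSCs. Leaving out 1 sorted set at a time gave log2 ratios of 0.13 to 0.31 for E10 non-HE to HE, 0.19 to 0.27 for HE to EHT, 0.37 to 0.45 for EHT to IAHC and 0.16 to 0.25 for IAHC to YS cells, and -0.06 (-0.0600 without type I set 2) to 0.14 for type I to type II. Without ribosomal protein genes E11 HE to EHT gave 0.31 and EHT to IAHC 0.41, and thinned over the E10 genes 0.32 and 0.40. Members past 1.5-fold with a pseudocount of 0.5 numbered 1 higher (E10 non-HE to HE), 1 lower (E11 non-HE to HE), 0 (E10) and 1 (E11) higher from HE to EHT, 14 higher and 0 lower (E10) and 11 higher and 1 lower (E11) from EHT to IAHC, 3 higher (E11 IAHC to YS) and 0 in both directions between pre-HSC types. A filter of 0.2 gave 4 lower (E10 EHT to IAHC), 1 lower (IAHC to YS at each stage) and 2 higher and 2 lower between pre-HSC types. Counts under this pseudocount and this filter are given without the shares of all genes and cannot be read against those printed above. Thinned E11 cells gave 3 higher and 7 lower (non-HE to HE), 14 higher and 2 lower (HE to EHT) and 24 higher and 2 lower (EHT to IAHC). They gave 10 higher and 0 lower from IAHC to YS. From type I to type II they gave 0 higher and 1 lower, against 6.64% and 6.51% of all genes.

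In ventral wIAHCs, members higher at E11 numbered 0 without TMM, with a depth minimum of 2000, with collection in the fit, with recovered UMIs, without 2 libraries of 4 or more mesenchyme markers and with no filter, and 2 with a minimum of 10000. Members lower numbered 2 without TMM and 0 without haemoglobin-rich libraries or under the looser filter, which gave 4 lower on the dorsal side. Some single members changed sign. Between sides at E10, Atp5b came to 0.0337 and 0.0624 (minimum 2000 and 10000), and at E11 to -0.0086 and -0.0414, Cox7b to 0.0556 (no filter), and Cox6c to 0.0139 (haemoglobin), 0.26 (no filter) and 0.20 (looser). In the interaction, Atp5b came to -0.0423 and -0.10 (2000, 10000), Cox8a to 0.0113, 0.13 and 0.13, and Cox6c to 0.15, 0.20 and 0.18 (10000, no filter, looser). Cox7b came to -0.00602 in the dorsal stage contrast (no filter), and Ndufa3 to -0.14 in the ventral one (looser, with collection). In each case the cause was not tested. Single wIAHCs were not left out in turn, as no group had 5 or fewer. For pre-HSCs, with the set number as a replicate block, the mean log2 difference between types was 0.0139 (pairing chosen after seeing the data, from the column names and from correlations of 0.14 to 0.33 between deviations across 1764 genes). Other populations compared share fewer than 2 set numbers. Depth limits members under 0.5 transcripts per cell.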

Other observations

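Isoforms that single cells hardly showed were met in some wIAHCs. Cox4i2 gave 28.3 transcripts over 10 of the 57 libraries, of which 9 were E10 and 1 E11, and the deepest 2 libraries (115328 and 110728 transcripts) gave 5.05 and 9.16 of them. In E11 single cells it gave 3 transcripts, and 0 at E10. Ndufa4l2, seen in no single cell, gave 7.02 transcripts in 5 libraries. Mesenchyme markers took 0 to 0.0234% of transcripts in the libraries with Cox4i2. These genes were chosen after their values were seen.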
